A study of Mus musculus with 15 samples.

Results

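Eicosanoids are short-range lipid signals made from arachidonic acid, and 10 genes that make or sense them were followed in cultured mouse macrophages: *Ptgs1*, *Ptgs2*, *Ptges*, *Hpgds*, *Ptger2* and *Ptger4* of the prostaglandin branch, and *Alox5*, *Alox5ap*, *Lta4h* and *Ltc4s* of the leukotriene branch. They were chosen by name among the 20089 complete gene entries of the deposited expression table, and the entry of each was found. In the prostaglandin branch, a cyclooxygenase (*Ptgs1*, in most cells a steady enzyme, or *Ptgs2*, the inducible one) turns arachidonic acid into prostaglandin H2, which terminal synthases convert to prostaglandin E2 or prostaglandin D2. In the leukotriene branch, 5-lipoxygenase and its helper protein FLAP make leukotriene A4, from which one enzyme makes leukotriene B4, an attractant of neutrophils, and another makes leukotriene C4, the parent of the cysteinyl leukotrienes. Macrophages run both branches, and prostaglandin E2 is a known regulator of osteoclast formation and bone resorption.

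The cells were bone marrow-derived macrophages (BMDMs) of wild-type C57BL/6 mice, measured by RNA-seq in 15 samples that form 5 groups of 3. Control BMDMs had been raised in the growth factor M-CSF (3 days in the labels, a longer time in the study's methods) and received no further stimulus. The other groups were BMDMs given receptor activator of NF-kappaB ligand (RANKL), the osteoclast-forming cytokine, for 4 h or 72 h, or lipopolysaccharide (LPS), a bacterial inflammatory stimulus, for 4 h or 72 h. Since unstimulated cells cultured for the same 72 h were not analysed here, stimulus and time in culture cannot be told apart in the 72 h groups. The labels give no age or sex of the animals, and do not say whether the 3 samples of a group came from separate mice or cultures, so p-values measure the spread between these samples only.

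Expression is given as FPKM, the number of sequenced fragments per kilobase of transcript, scaled to the mapped fragments of the library, which is a level per transcript length. The fragments recovered from the FPKM of the analysed entries summed to 18306184 to 20330207 per sample. All 10 genes were above 0.7 FPKM in every sample, so no gene entered the test through its highest group alone. The test was limma on log2(FPKM + 0.1) of all 11743 genes that averaged 0.1 FPKM or more. To be called higher or lower, a gene needed a fold change over 1.5 or under 0.66 together with a Benjamini-Hochberg adjusted p under 0.05. On this scale the changes of weakly expressed genes come out too small.

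Some facts of the whole series touch the results below. All 8 macrophage markers were detected in every sample, 9 of 10 osteoclast markers were higher in RANKL 72 h and 10 of 10 LPS-response markers in LPS 4 h. After 4 h of LPS the median of all tested genes lay at -0.52 on the log2 scale, against 0.00 in RANKL 4 h, 0.16 in RANKL 72 h and 0.08 in LPS 72 h, so a difference of that size in LPS 4 h is that of the median gene. The values were therefore also tested after each library was centred on its median gene. Markers of other bone marrow cells were present: 10 neutrophil and precursor markers summed to between 7920 and 24381 FPKM in control libraries and to between 152 and 1819 FPKM in LPS 72 h. There were 2 libraries that stood apart in their groups. LPS 72 h replicate 3 had the 1819 FPKM of neutrophil markers where the others had 187 and 152 FPKM. It also had 17491 FPKM of macrophage markers (others 6086 and 7876) and 471 FPKM of 10 stromal markers (others 89.4 and 84.6). Its LPS-response markers were lower, at 2168 FPKM where the others had 4506 and 4394 FPKM. RANKL 72 h replicate 1 had 1861 FPKM of stromal markers where the others had 834 and 398 FPKM. Stromal sums in RANKL 72 h were mostly *Col1a1* and *Col1a2*, and *Dcn* averaged 0.70 FPKM there against 1.63 FPKM in control. Of the 10 stromal markers, 7 were called higher and 0 lower in RANKL 72 h. In such bulk samples, fewer cells of a type and less RNA per cell cannot be told apart.

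**Figure D1:**
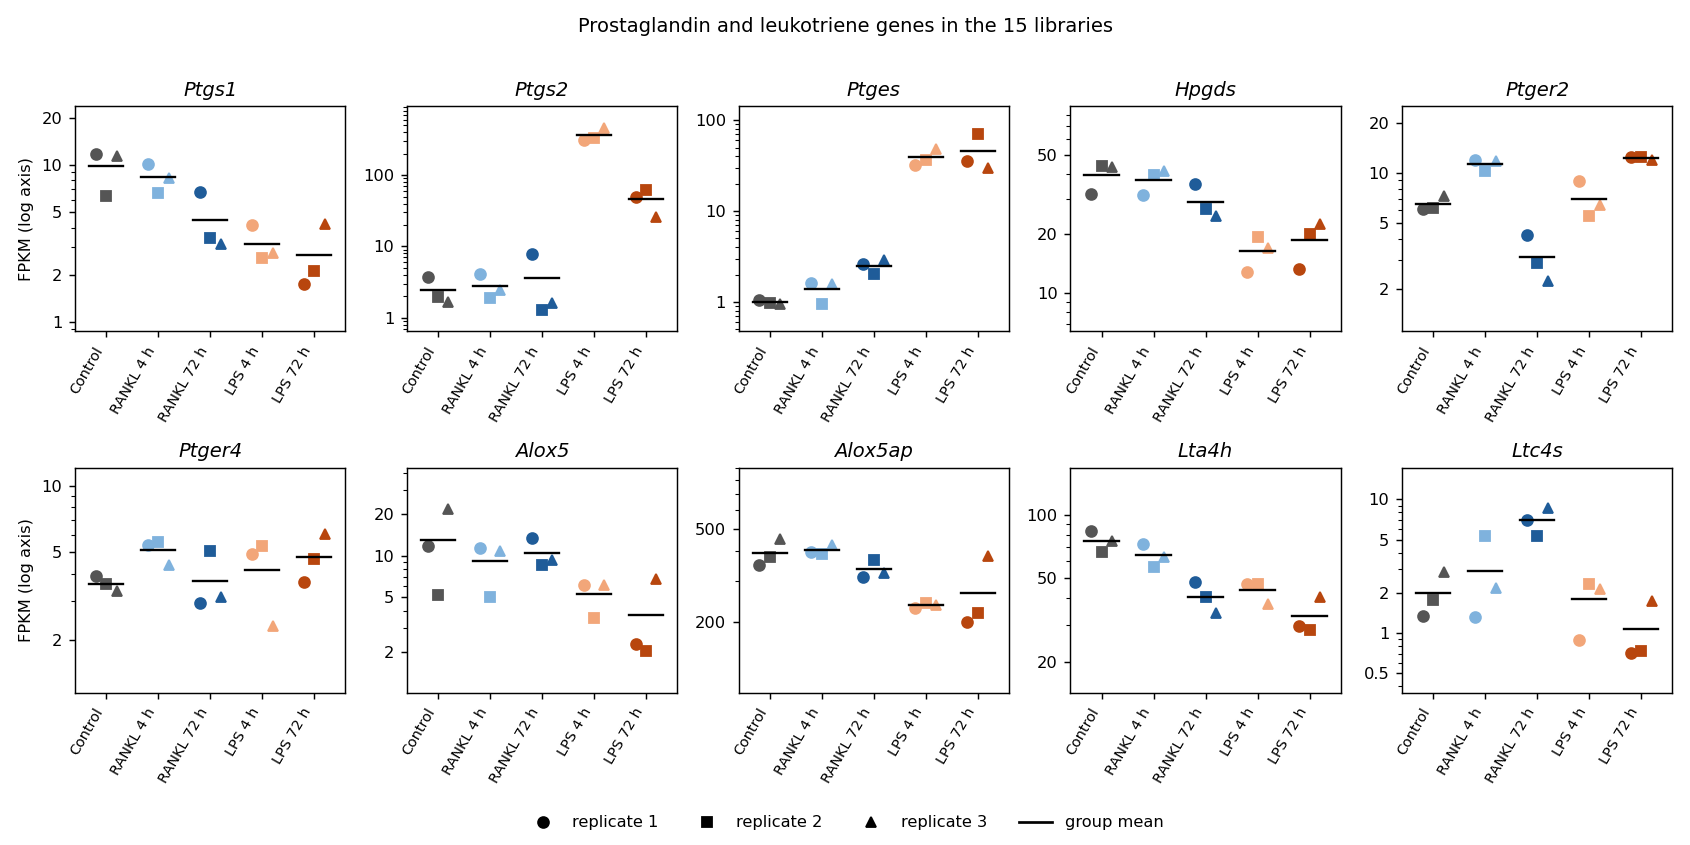
FPKM (log axis, its range set for each gene) of the 10 genes in each of the 15 libraries, with the replicate number as the marker shape and the group mean as a bar. *Ptgs2* and *Ptges* sat above all other groups in the 6 LPS libraries, *Ltc4s* was highest on average in RANKL 72 h, and *Ptgs1*, *Hpgds*, *Alox5* and *Lta4h* were highest on average in control cells.

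The cyclooxygenases went opposite ways under LPS. *Ptgs2* (chromosome 1, 150100031 to 150108227, plus strand, GENCODE M21 on GRCm38, 10 exons) stood at 3.71, 1.97 and 1.66 FPKM in the 3 control samples. After 4 h of LPS it stood at 308, 328 and 462 FPKM, and after 72 h at 48.7, 62.5 and 25.9 FPKM. All 6 LPS samples were above every control sample, and the 3 LPS 72 h samples were below every LPS 4 h sample. The rise was 150.1-fold at 4 h (log2 fold change 7.23, standard error 0.55, adjusted p = 2.62e-07 from limma) and 17.9-fold at 72 h (log2 4.16, adjusted p = 0.000104), and the fall of 3.07 on the log2 scale between the time points was also called (adjusted p = 0.000252). Under RANKL, *Ptgs2* stood at 4.15, 1.87 and 2.46 FPKM at 4 h and at 7.90, 1.28 and 1.61 FPKM at 72 h, and neither group was called. The value of 7.90 FPKM belongs to the RANKL 72 h library with the most stromal, neutrophil, and mast cell and basophil marker RNA of its group. Without that library the log2 difference from control went from 0.15 to -0.64 (adjusted p = 0.271), so its sign rests on 1 library. The part of RNA from these cells in this value was not tested.

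*Ptgs1* (chromosome 2, 36230426 to 36252272, plus strand, 11 exons) encodes the other cyclooxygenase, and its entry carries a predicted rather than a curated RefSeq transcript. It stood at 11.8, 6.40 and 11.4 FPKM in control cells, at 4.15, 2.57 and 2.74 FPKM in LPS 4 h and at 1.74, 2.10 and 4.23 FPKM in LPS 72 h. Every LPS sample was below every control sample. *Ptgs1* was lower at 4 h by log2 -1.60 (adjusted p = 0.00184) and at 72 h by log2 -1.89 (standard error 0.36, adjusted p = 0.00133). After centring on the median gene the 4 h value was -1.03 with adjusted p = 0.0505, which ended that call, whereas the 72 h call held. RANKL 4 h samples, at 10.1, 6.68 and 8.34 FPKM, overlapped control, and RANKL 72 h samples, at 6.75, 3.43 and 3.14 FPKM, overlapped only through control replicate 2. The RANKL 72 h difference of -1.17 was called (adjusted p = 0.0257) but not without control replicate 1 (0.0981), control replicate 3 (0.077), RANKL 72 h replicate 2 (0.0855) or RANKL 72 h replicate 3 (0.0981), given here as adjusted p. In each group the library with the highest *Ptgs1* also had the highest sum of neutrophil and precursor markers. In LPS 72 h this was replicate 3, with 1819 FPKM of these markers against 187 and 152 FPKM. The lowest *Ptgs1* of LPS 72 h was in replicate 1, and the lowest sum in replicate 2. The part of RNA from neutrophils or other bone marrow cells in the *Ptgs1* values was not tested.

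The balance between both enzymes, taken as the FPKM of *Ptgs2* over that of *Ptgs1* in the same library, was 0.146 to 0.313 in control libraries and 0.279 to 0.409 in RANKL 4 h. In RANKL 72 h it was 0.373, 0.514 and, in the library with the high *Ptgs2*, 1.17. It was 74.2, 128 and 169 in LPS 4 h and 28.0, 29.7 and 6.13 in LPS 72 h. *Ptgs1* was thus the higher of both in all 6 control and RANKL 4 h libraries and in 2 of 3 RANKL 72 h libraries, and *Ptgs2* in all 6 LPS libraries.

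Among the terminal synthases of the 10 genes, *Ptges* rose and *Hpgds* fell under LPS. *Ptges* (chromosome 2, 30889471 to 30929863, minus strand, 3 exons) encodes the inducible membrane synthase that works downstream of *Ptgs2*. It stood at 1.06, 0.965 and 0.946 FPKM in control cells, at 32.0, 36.7 and 48.0 FPKM in LPS 4 h and at 36.0, 70.9 and 30.1 FPKM in LPS 72 h. All 6 LPS samples were above every control sample, while the LPS groups overlapped each other, with a rise over control of 35.3-fold at 4 h (log2 5.14, standard error 0.28, adjusted p = 1.44e-08) and 39.2-fold at 72 h (log2 5.29, adjusted p = 1.79e-07). Between LPS 72 h and LPS 4 h the log2 difference of *Ptges* was 0.15 with a 95% interval of -0.46 to 0.76, whereas *Ptgs2* fell by 3.07 over the same time. The median of all tested genes lay at 0.52 in this comparison. After centring on the median gene the *Ptges* difference was -0.50 and not called (adjusted p = 0.145, limma). *Ptges* was also higher in RANKL 72 h, at 2.59, 2.05 and 2.88 FPKM and 153 to 212 fragments, above all control samples (log2 1.25, adjusted p = 0.00513). RANKL 4 h samples of *Ptges*, at 1.61, 0.961 and 1.56 FPKM, overlapped control. The other prostaglandin E2 synthase genes, *Ptges2* and *Ptges3*, were not called in either LPS group. *Ptges2* had log2 differences of 0.25 at 4 h (0.82 and called higher after centring, adjusted p = 0.00691) and 0.36 at 72 h, and *Ptges3* of -0.18 and -0.50, the latter with all 3 samples below control but short of the fold limit.

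*Hpgds* (chromosome 6, 65117293 to 65144908, minus strand, 6 exons), the hematopoietic synthase of prostaglandin D2, stood at 31.7, 44.0 and 43.4 FPKM in control cells. Its levels were 12.8, 19.1 and 16.8 FPKM in LPS 4 h and 13.3, 20.0 and 22.3 FPKM in LPS 72 h, all 6 below every control sample. It was lower by 1.29 on the log2 scale at 4 h (adjusted p = 0.000217) and by 1.11 at 72 h (adjusted p = 0.0016), and the 4 h call held after centring (log2 -0.72, adjusted p = 0.0185). RANKL 4 h stood at 31.3, 39.6 and 41.5 FPKM. RANKL 72 h stood at 35.5, 26.7 and 24.5 FPKM, a log2 difference from control of -0.46 (adjusted p = 0.125) that passed the test only after centring (-0.68, adjusted p = 0.032). Mast cells and basophils also express *Hpgds*, and 10 of their markers summed to between 32.4 and 94.9 FPKM in control libraries, 48.3 and 151 FPKM in LPS 4 h, 2.88 and 12.6 FPKM in RANKL 72 h and 3.62 and 8.58 FPKM in LPS 72 h. The LPS 4 h sum was mostly *Hdc*, at 23.3 to 92.4 FPKM against 4.74 to 22.5 FPKM in control, while the median log2 difference of the list there was -0.46. Of the 10, 3 to 5 were at 0 in RANKL 72 h libraries and 3 to 6 in LPS 72 h libraries. In LPS 4 h, 1 of their 8 tested markers was called higher and 0 lower, and in both 72 h groups 8 (RANKL) and 7 (LPS) were called lower. Their part in the *Hpgds* values was not tested. The ratio of *Ptges* to *Hpgds* FPKM was 0.0218 to 0.0334 in control libraries, 0.0731 to 0.117 in RANKL 72 h, 1.92 to 2.85 in LPS 4 h and 1.35 to 3.55 in LPS 72 h.

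Since *Ptgs2* and *Ptges* rose together under LPS while *Ptgs1* fell, the 250 bases before the RefSeq start of each are shown, on GRCm38.p6 and read 5′ to 3′ on the gene's strand. They cover chr1:150099781-150100030 (plus strand), chr2:30903298-30903547 (minus strand) and chr2:36230176-36230425 (plus strand), and capitals mark motif matches. The RefSeq start of *Ptges* differs from the 5′ end of its GENCODE M21 span at 30929863, so that its window lies within that span.
Ptgs2: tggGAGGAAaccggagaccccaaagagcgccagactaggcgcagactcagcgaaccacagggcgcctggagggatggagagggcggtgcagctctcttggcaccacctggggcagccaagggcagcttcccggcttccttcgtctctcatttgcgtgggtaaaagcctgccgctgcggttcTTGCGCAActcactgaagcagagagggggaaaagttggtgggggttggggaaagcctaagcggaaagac
Ptges: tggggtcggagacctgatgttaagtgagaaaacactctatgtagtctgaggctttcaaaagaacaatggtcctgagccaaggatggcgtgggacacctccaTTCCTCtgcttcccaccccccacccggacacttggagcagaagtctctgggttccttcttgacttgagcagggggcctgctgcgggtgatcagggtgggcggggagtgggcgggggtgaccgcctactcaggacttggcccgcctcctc
Ptgs1: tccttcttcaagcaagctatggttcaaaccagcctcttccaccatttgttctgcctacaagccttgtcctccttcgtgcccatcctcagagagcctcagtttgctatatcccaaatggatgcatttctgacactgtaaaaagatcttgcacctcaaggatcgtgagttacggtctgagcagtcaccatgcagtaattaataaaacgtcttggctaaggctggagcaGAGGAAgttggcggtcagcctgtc
In the *Ptgs2* window, the capitals TTGCGCAA are a match to the C/EBP motif (TTGCNNAA), 69 to 62 bases before the start, and GAGGAA is a match to the PU.1 core 247 to 242 bases before it. The *Ptges* window holds 1 PU.1 core on the opposite strand (TTCCTC, 149 to 144 bases before the start), and the *Ptgs1* window 1 on the plus strand (24 to 19 bases before). The C/EBP match reads the same on both strands, and no match overlapped that of another motif.

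The search covered both strands for 7 motifs in the windows of the 9 genes of the group with a listed start (not *Alox5ap*): the NF-kappaB motif, the CRE (TGACGTNA), AP-1 (TGANTCA), C/EBP, the PU.1 core, the TATA box (TATAAA) and the E box (CACGTG). A C/EBP match was present in 2 of the 9 (*Ptgs2* and *Hpgds*), against 9.56% of all 32851 listed starts, and a PU.1 core in 6 of the 9 (all but *Ptger2*, *Ptger4* and *Ltc4s*), against 23.3%. None of the 9 held a match to the NF-kappaB motif (7.25% of starts), the CRE (2.52%), AP-1 (6.75%), the TATA box (12.4%) or the E box (6.02%). A match is a string of letters and not a measured site, and its absence from this window says nothing on the factor.

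The prostaglandin E2 receptors *Ptger2* and *Ptger4* encode EP2 and EP4, both of which raise cyclic AMP. *Ptger2* (chromosome 14, 44988195 to 45003820, plus strand, 2 exons) went opposite ways under the stimuli at 72 h. Control samples stood at 6.03, 6.15 and 7.22 FPKM, RANKL 72 h samples at 4.20, 2.89 and 2.23 FPKM and LPS 72 h samples at 12.5, 12.5 and 12.0 FPKM, with no overlap among the 3 groups. It was lower in RANKL 72 h (log2 -1.08, adjusted p = 0.00196) and higher in LPS 72 h (log2 0.92, standard error 0.21, adjusted p = 0.00396). At 4 h the order was another one: RANKL 4 h samples, at 11.9, 10.2 and 11.8 FPKM, were all above control, and LPS 4 h samples, at 8.92, 5.52 and 6.38 FPKM, overlapped it. The RANKL 4 h difference of 0.80 had an adjusted p of 0.287, in a comparison in which 13 genes were called higher and 1 lower, and its unadjusted p of 0.00196 passes the rule of the study's methods. Between RANKL 4 h and RANKL 72 h *Ptger2* went down (log2 -1.87, adjusted p = 4.06e-05). In LPS 4 h the log2 value was 0.07, and after centring on the median gene it was 0.64 and called higher (adjusted p = 0.0245).

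*Ptger4* (chromosome 15, 5206661 to 5244187, minus strand, 3 exons) was not called in any of the 8 comparisons made. Its levels were 3.90, 3.58 and 3.34 FPKM in the control samples, 5.39, 5.57 and 4.38 FPKM in RANKL 4 h, 2.97, 5.07 and 3.16 FPKM in RANKL 72 h, 4.92, 5.32 and 2.31 FPKM in LPS 4 h and 3.66, 4.67 and 6.05 FPKM in LPS 72 h. The RANKL 4 h samples were all above control, with a log2 difference of 0.49 (95% interval -0.14 to 1.11). In LPS 72 h the difference was 0.37, with an adjusted p of 0.339. The ratio of *Ptger2* to *Ptger4* was 1.54 to 2.17 in control libraries, and RANKL 72 h held the only libraries in which *Ptger4* was the higher of both, with ratios of 0.569 and 0.705 beside 1.42. Antisense genes are annotated within *Ptger2*, and the coding gene *Ttc33* overlaps *Ptger4* on the opposite strand. The sources used here do not state whether strand was used in counting, so reads of these genes may not be fully separated.

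The leukotriene branch begins with *Alox5* (chromosome 6, 116410077 to 116461178, minus strand, 14 exons), which encodes 5-lipoxygenase. It stood at 11.8, 5.23 and 21.7 FPKM in control cells, at 11.5, 5.01 and 10.9 FPKM in RANKL 4 h and at 13.4, 8.52 and 9.27 FPKM in RANKL 72 h. LPS 4 h samples stood at 6.14, 3.56 and 6.10 FPKM and LPS 72 h samples at 2.28, 2.03 and 6.77 FPKM. Replicate 2 was the lowest of the 3 in each of the 5 groups, and the control group alone spans 5.23 to 21.7 FPKM. *Alox5* was lower in LPS 72 h (log2 -1.77, standard error 0.52, adjusted p = 0.0168), in groups that overlap through LPS 72 h replicate 3 and control replicate 2. The adjusted p was 0.0769 without control replicate 3, 0.0709 without LPS 72 h replicate 1, 0.0757 without LPS 72 h replicate 2 and 0.00273 without LPS 72 h replicate 3 (log2 -2.31). In LPS 4 h the difference of -1.09 had an adjusted p of 0.0818 without and 0.0137 with the replicate number as a block, so the paired fit calls *Alox5* lower there. It was likewise called without control replicate 2 (adjusted p = 0.0155) and without LPS 72 h replicate 3 (adjusted p = 0.0472).

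Neutrophils express *Alox5* strongly, and the level of neutrophil marker RNA differed between libraries. The 10 markers summed to 24381, 7920 and 21613 FPKM in control replicates 1 to 3, to 21841, 7520 and 14202 FPKM in RANKL 4 h and to 21355, 6669 and 13018 FPKM in LPS 4 h, so that replicate 2 was lowest there as well. The sums were 7649, 3724 and 1902 FPKM in RANKL 72 h and 187, 152 and 1819 FPKM in LPS 72 h, and 5 and 10 of the 10 markers were called lower in these groups. Defining markers stayed above 0 in nearly every library: *Ngp* was between 2.84 and 117 FPKM and *Elane* between 0.369 and 10.1 FPKM in LPS 72 h, and 1 of the 10 markers was at 0 in 1 LPS 72 h library. RANKL 72 h, with lower marker sums than control, had its lowest sum in replicate 3 and its lowest *Alox5* in replicate 2. Its *Alox5* levels were inside the control range (log2 -0.11, 95% interval -1.22 to 0.99). The control sums were mostly *S100a8* and *S100a9*, at means of 6059 and 7207 FPKM. Listed markers differed in RANKL 72 h. *Elane* averaged 8.98 FPKM there against 336 FPKM in control. *Retnlg* averaged 107 FPKM (52.4 to 198) there against 106 FPKM (7.64 to 270) in control. Across the 15 libraries and the 9486 genes that averaged 1 FPKM or more, those most like *Alox5* by Pearson correlation of log2 values were *Ceacam10* (0.977), *Rasgrp4* (0.97), *Slc2a3* (0.968), *Ly6g* (0.952) and *Cxcr2* (0.949), of which *Ly6g* and *Cxcr2* are neutrophil genes. Of the neutrophil list, correlations with *Alox5* were computed only for *S100a8* (0.726), *S100a9* (0.737) and *Ngp* (0.748), and these were lower. Other listed markers were left out of that comparison, among them *Retnlg*, which averaged 18.3 FPKM in LPS 4 h and 1.17 FPKM in LPS 72 h. These values are a description, since libraries of a group share their treatment. The part of neutrophil RNA in the *Alox5* values was not tested.

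**Figure D2:**
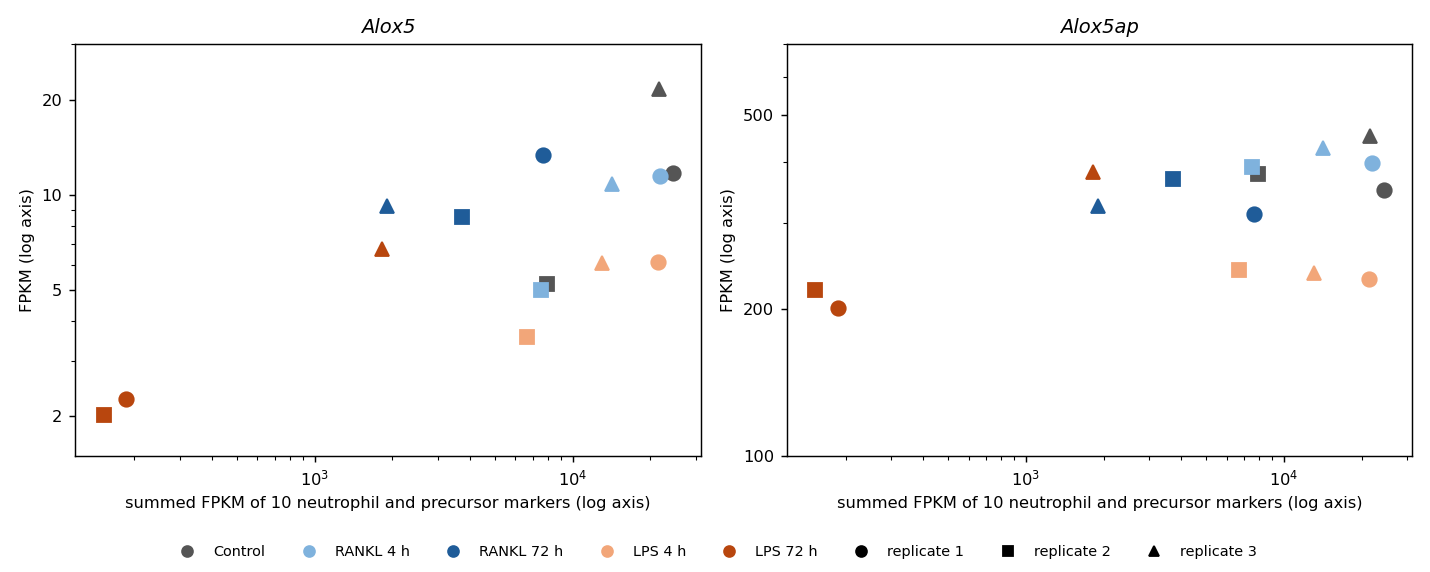
FPKM of *Alox5* (left) and *Alox5ap* (right) against the summed FPKM of 10 neutrophil and precursor markers, 1 point a library, all axes logarithmic, with group as colour and replicate number as shape. The 2 libraries with the lowest marker sums, 152 and 187 FPKM, had the 2 lowest *Alox5* values, 2.03 and 2.28 FPKM, and the 3 LPS 4 h libraries had *Alox5ap* between 230.3 and 241 FPKM at marker sums from 6669 to 21355 FPKM.

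*Alox5ap* (chromosome 5, 149264767 to 149288153, plus strand, 5 exons) encodes FLAP, which presents arachidonic acid to 5-lipoxygenase, and by FPKM it was the highest of the 10 genes in control cells. It stood at 352, 379.6 and 452 FPKM in control cells, at 399.7, 391 and 428 FPKM in RANKL 4 h and at 313, 369 and 325 FPKM in RANKL 72 h. LPS 4 h samples, at 230.3, 241 and 237 FPKM, lay close together and below all control samples, and LPS 72 h samples stood at 201, 219 and 383 FPKM. The LPS 4 h difference of -0.73 was called (adjusted p = 0.00496), but it was near the -0.52 of the median gene and shrank to -0.17 after centring (adjusted p = 0.604), which ended the call. The LPS 72 h difference of -0.61 was called (adjusted p = 0.0242) and grew to -0.90 without LPS 72 h replicate 3 (adjusted p = 0.000105). That call was lost with FPKM rescaled to equal sums (-0.58, short of the fold limit) and without control replicate 2 (adjusted p = 0.0513), control replicate 3 (0.0894), LPS 72 h replicate 1 (0.118) or LPS 72 h replicate 2 (0.104). An antisense gene is annotated across part of *Alox5ap*, with the same limit on strand as above.

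*Lta4h* (chromosome 10, 93453411 to 93484875, plus strand, 19 exons), the hydrolase that makes leukotriene B4, was lower in both 72 h groups. Its levels were 83.6, 66.7 and 75.4 FPKM in the control samples, 72.3, 56.7 and 63.2 FPKM in RANKL 4 h, 47.8, 40.5 and 34.2 FPKM in RANKL 72 h, 46.7, 46.6 and 37.8 FPKM in LPS 4 h and 29.6, 28.5 and 40.6 FPKM in LPS 72 h. Apart from RANKL 4 h, every stimulated sample was below every control sample. It was lower by 0.89 on the log2 scale in RANKL 72 h (standard error 0.16, adjusted p = 0.00148) and by 1.20 in LPS 72 h (adjusted p = 0.000122), and both calls held in each of the 15 fits that left out 1 library. In LPS 4 h the difference of -0.78 was called (adjusted p = 0.00109) and shrank to -0.22 after centring (adjusted p = 0.407), as for *Alox5ap*. *Lta4h* is broadly expressed and no other annotated gene overlaps it.

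*Ltc4s* (chromosome 11, 50236461 to 50238616, minus strand, 5 exons), which encodes leukotriene C4 synthase, went the other way under RANKL. It stood at 1.34, 1.78 and 2.88 FPKM in control cells, at 1.32, 5.31 and 2.17 FPKM in RANKL 4 h and at 7.05, 5.32 and 8.63 FPKM in RANKL 72 h. LPS samples stood at 0.886, 2.33 and 2.14 FPKM at 4 h and at 0.712, 0.735 and 1.75 FPKM at 72 h. All 3 RANKL 72 h samples were above all samples of the other groups, by a narrow margin over RANKL 4 h replicate 2. The rise against control was 3.48-fold (log2 1.80, standard error 0.49, adjusted p = 0.014), and the adjusted p was 0.0622 without control replicate 1 and 0.0515 without RANKL 72 h replicate 3. The counts are small, 19 to 38 fragments in control, 72 to 115 in RANKL 72 h and 10 to 23 in LPS 72 h, so counting error adds to the spread. In LPS 72 h the difference from control was -0.90 (95% interval -1.95 to 0.16, adjusted p = 0.171). An antisense gene overlaps *Ltc4s* too. The ratio of *Ltc4s* to *Lta4h* FPKM was 0.0160 to 0.0382 in control libraries, 0.0240 to 0.0429 in LPS 72 h and 0.131 to 0.252 in RANKL 72 h, where it exceeded every library of the other groups.

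Set side by side, the comparisons with control, which share their control samples, had different members called. RANKL 4 h called 0 of the 10 (limma; 1 of 10, *Ptger2*, passed the fold and an unadjusted p under 0.05, and voom called 0), in a comparison with 0.111% of all genes called higher and 0.00852% lower. RANKL 72 h called 2 higher (*Ptges* and *Ltc4s*) and 3 lower (*Ptgs1*, *Ptger2* and *Lta4h*), against 16.6% and 7.54% of all genes. Its count of higher calls is near the share of all genes and is no result about the group. LPS 4 h called 2 higher (*Ptgs2* and *Ptges*) and 4 lower (*Ptgs1*, *Hpgds*, *Alox5ap* and *Lta4h*), against 8.43% and 39.7% of all genes, so that its lower calls are at the share of all genes and are no result about the group. LPS 72 h called 3 higher (*Ptgs2*, *Ptges* and *Ptger2*) and 5 lower (*Ptgs1*, *Hpgds*, *Alox5*, *Alox5ap* and *Lta4h*), against 13% and 14.4% of all genes. The median log2 fold change of the 10 was 0.13, -0.17, -0.46 and -0.75 in these 4 comparisons, beside 0.00, 0.16, -0.52 and 0.08 for all tested genes.

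**Figure D3:**
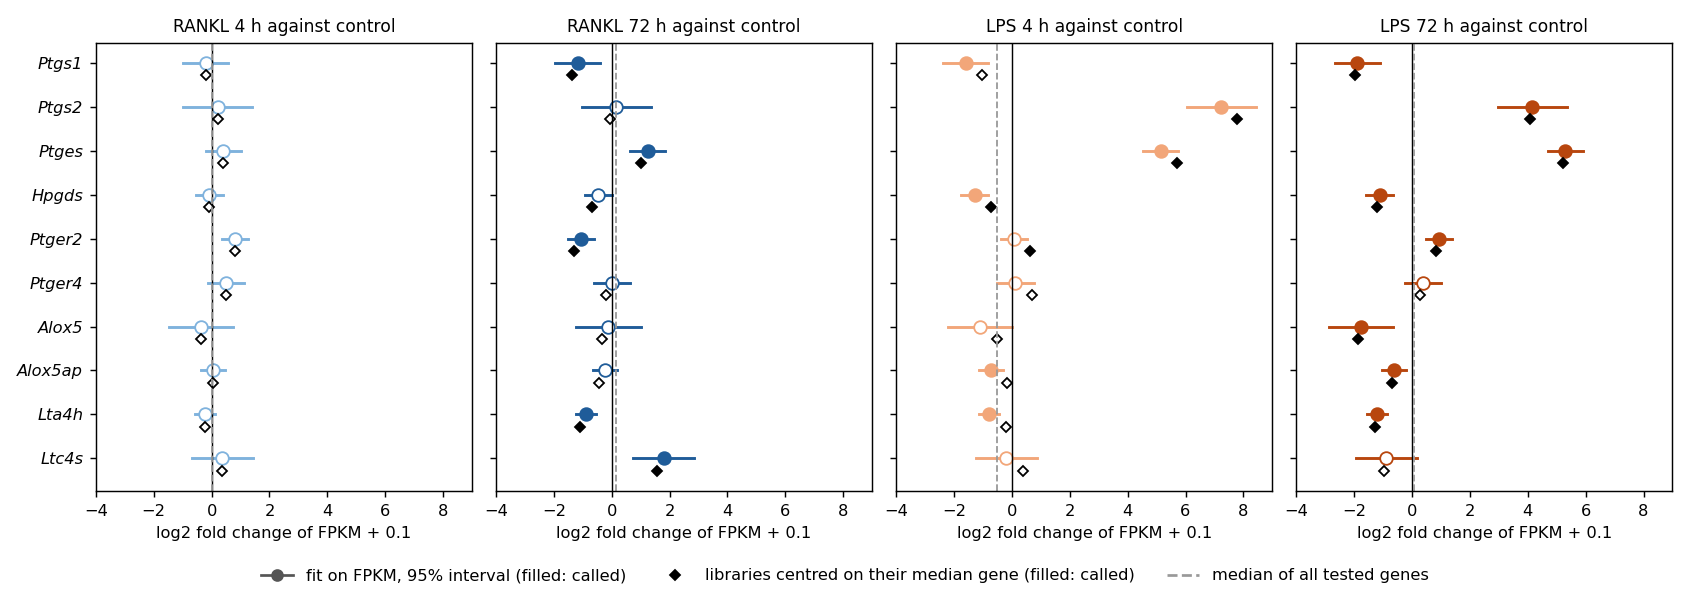
Log2 fold change of FPKM + 0.1 against control for the 10 genes in the 4 stimulated groups: circles with 95% intervals from the limma fit, diamonds after centring each library on its median gene, filled where called, with the median of all tested genes as a dashed line. In LPS 4 h, centring moved every value up, and *Ptgs1*, *Alox5ap* and *Lta4h* lost and *Ptger2* gained a call, whereas *Ptgs2* (7.23), *Ptges* (5.14) and *Hpgds* (-1.29) were called both ways.

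The direct comparison of RANKL with LPS gave the difference between the stimuli at the same time. At 72 h, *Hpgds* (log2 0.65, adjusted p = 0.0257), *Alox5* (1.66, adjusted p = 0.0179) and *Ltc4s* (2.69, adjusted p = 0.000572) were higher in RANKL, against 23.3% of all genes. That count is near the share of all genes and is no result about the group. *Ptgs2* (-4.01), *Ptges* (-4.05) and *Ptger2* (-2.00, adjusted p = 5.71e-06) were lower in RANKL, against 12.8%. *Alox5* lost this call without RANKL 72 h replicate 1 (adjusted p = 0.0646), LPS 72 h replicate 1 (0.0732) or LPS 72 h replicate 2 (0.0806), and *Hpgds* without RANKL 72 h replicate 1 (0.111) or LPS 72 h replicate 1 (0.131). Without LPS 72 h replicate 3, *Ptgs1* (log2 1.09, adjusted p = 0.0198) and *Alox5ap* (0.67, adjusted p = 0.000547) were also called higher in RANKL. At 4 h, *Ptgs1* (1.39), *Hpgds* (1.21), *Ptger2* (0.72) and *Alox5ap* (0.78) were higher in RANKL, against 41% of all genes. This count, too, is at the share of all genes and is no result about the group. *Ptgs2* (-7.02) and *Ptges* (-4.74) were lower in RANKL at 4 h, against 8.98%. After centring only *Hpgds*, *Ptgs2* and *Ptges* were called at 4 h. Without LPS 4 h replicate 2, *Ptger2* (0.57) fell short of the fold limit, and *Lta4h*, at 0.55 just under that limit (adjusted p = 0.0103), was called without RANKL 4 h replicate 2 (0.64), LPS 4 h replicate 1 (0.60) or LPS 4 h replicate 2 (0.60).

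Between the time points, 4 of the genes were called under RANKL, in differences that hold both stimulus and time in culture. *Ptges* (log2 0.84, adjusted p = 0.0389) and *Ltc4s* (1.43, adjusted p = 0.0427) were higher at 72 h than at 4 h, against 16.4% of all genes (a count near that share and no result about the group). *Ptger2* (-1.87) and *Lta4h* (-0.66, adjusted p = 0.00958) were lower, against 6.83%. Of these, *Ptger2* held in all 15 fits that left out 1 library, while *Ptges* held in 10, *Ltc4s* in 9 and *Lta4h* in 13, as detailed in the closing section. Centring ended both higher calls, with 0.62 for *Ptges* (adjusted p = 0.109) and 1.21 for *Ltc4s* (adjusted p = 0.0808), and *Ptges* was not called with voom (adjusted p = 0.139) or a pseudocount of 1 (0.103) either. Without a filter on low values, neither *Ptges* (adjusted p = 0.0531) nor *Ltc4s* (0.0621) was called. *Ltc4s* also lost its call without the trend in eBayes (0.0507) and with only the groups compared in the fit (0.0574). With FPKM rescaled to equal sums, *Lta4h* (-0.54) fell short of the fold limit. *Ptgs1*, at -0.97, had an adjusted p of 0.0585 without and 0.0333 with the replicate block, and it was called without RANKL 72 h replicate 1 (adjusted p = 0.0207), without LPS 72 h replicate 3 (0.0295) and after centring (0.0342). Under LPS 2 were called: *Ptgs2* was lower at 72 h than at 4 h, against 13.9% of all genes (a count near that share), and *Ptger2* higher (0.85, adjusted p = 0.00254), against 44.2%. The latter shrank to 0.20 after centring (adjusted p = 0.424), and *Lta4h* (-1.07, adjusted p = 0.000339) and *Ltc4s* (-1.35, adjusted p = 0.0318) were then called lower. *Alox5* was called lower (-1.21, adjusted p = 0.0458) without LPS 72 h replicate 3.

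Another 43 genes of eicosanoid release, synthesis, reception and breakdown were counted by direction, and 32 of them reached a mean of 0.1 FPKM. Relative to control, 0 of the 32 were called in RANKL 4 h, 5 were higher and 6 lower in RANKL 72 h, 2 higher and 11 lower in LPS 4 h, and 7 higher and 10 lower in LPS 72 h. Of all genes, 16.6% were called higher and 7.54% lower in RANKL 72 h, 8.43% and 39.7% in LPS 4 h, and 13% and 14.4% in LPS 72 h, so the 5 higher calls in RANKL 72 h and the 2 higher and 11 lower calls in LPS 4 h are near the share of all genes and are no result about the list. The LPS 4 h median of these 32 was -0.68, near the -0.52 of all genes. *Pla2g4a*, the cytosolic phospholipase that releases arachidonic acid, was at a mean of 20.2 ± 2.22 FPKM in control, 32.1 ± 8.88 FPKM in LPS 4 h and 34.7 ± 9.96 FPKM in LPS 72 h (SD, n = 3 each), called higher in both (log2 0.63, adjusted p = 0.0344, and 0.74, adjusted p = 0.0279). The 4 h call was lost without control replicate 1 (log2 0.58), control replicate 3 (0.60), LPS 4 h replicate 2 (0.58) or LPS 4 h replicate 3 (0.45), and the 72 h call without control replicate 1 (0.69), control replicate 3 (0.70), LPS 72 h replicate 1 (0.56) or LPS 72 h replicate 2 (0.66). *Pla2g6* and *Pla2g12a*, further phospholipases, were called lower in LPS 4 h (-1.14 and -0.70, neither after centring, and *Pla2g12a* at -0.60 not without LPS 4 h replicate 3) and higher in LPS 72 h (0.64 and 0.86), the former not after centring (0.56, under the fold limit) nor without control replicate 1 (0.55), control replicate 2 (0.64), LPS 72 h replicate 1 (0.56) or LPS 72 h replicate 2 (0.60). *Hpgd*, the dehydrogenase that inactivates prostaglandins, fell from 1.57 to 2.32 FPKM in control to 0 to 0.437 FPKM in LPS 72 h (log2 -3.22, adjusted p = 0.000147), while RANKL 72 h samples stood at 1.99 to 3.21 FPKM. *Slco2a1*, the prostaglandin transporter, was higher in RANKL 72 h (log2 1.28, adjusted p = 0.00932) at low levels of 0.539 to 1.22 FPKM, a call that a pseudocount of 1 ended, and *Ptgr1*, a prostaglandin reductase, was lower there (-1.11, adjusted p = 0.00318).

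On the leukotriene side, *Mgst3*, a microsomal glutathione transferase related to leukotriene C4 synthase, and *Cysltr1*, a receptor of cysteinyl leukotrienes, were higher in RANKL 72 h beside *Ltc4s*. *Mgst3* stood at 12.2 to 24.7 FPKM in control, 45.8 to 72.2 FPKM in RANKL 72 h and 7.40 to 10.2 FPKM in LPS 72 h (2.82-fold, adjusted p = 0.000953, and log2 -1.19, adjusted p = 0.00325). *Cysltr1* stood at 11.1 to 12.6 FPKM in control and 24.5 to 28.1 FPKM in RANKL 72 h (log2 1.09, adjusted p = 0.014, and 0.0607 after centring). At 4 h its samples were all below control, at 4.06 to 7.89 FPKM in RANKL (not called) and 3.32 to 5.27 FPKM in LPS. *Cysltr2*, the other receptor gene, stood at 1.59 to 2.84 FPKM in control and lower, at 0.857 to 1.54 FPKM, in RANKL 72 h (log2 -0.68), with an adjusted p of 0.0883 without and 0.0261 with the replicate block, and of 0.0355 after centring. *Mgst2*, another transferase of that family, moved against them, from 5.53 to 12.5 FPKM in control to 1.51 to 3.09 FPKM in RANKL 72 h (log2 -1.88, adjusted p = 0.00156). The leukotriene B4 receptor gene *Ltb4r1* fell in RANKL 72 h too (log2 -1.69, adjusted p = 0.0129), a call lost without control replicate 1 (-1.45) or RANKL 72 h replicate 3 (-1.28). *Ltb4r1* was highest in replicate 1 in 4 groups and lowest in replicate 2 in 4 groups. The counts were the same for the neutrophil markers *S100a9* and *Ngp*, 3 and 3 for *S100a8*, and 4 and 3 for *Camp*. The part of neutrophil RNA in the *Ltb4r1* values was not tested. *Abcc1*, which exports leukotriene C4, was called higher in RANKL 72 h (0.90, not after centring), LPS 4 h (0.87) and LPS 72 h (1.19, adjusted p = 0.00648). The RANKL 72 h call of *Abcc1* was lost without control replicate 1 (0.65), RANKL 72 h replicate 2 (0.84) or RANKL 72 h replicate 3 (0.83), and its LPS 4 h call without control replicate 1 (0.62) or LPS 4 h replicate 3 (0.67). *Ephx2*, the soluble epoxide hydrolase, had the largest rise of the 32 in RANKL 72 h, from 0.126 to 0.181 FPKM in control to 1.43 to 4.06 FPKM (log2 3.41, adjusted p = 2.47e-05).

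Of 5 other lipoxygenase genes, 2 had levels high enough to be tested, *Alox12* and *Alox15*, and both were called lower in both 72 h groups. *Alox12*, the platelet-type enzyme, stood at 3.98 to 13.5 FPKM in control, 0.0485 to 0.167 FPKM in RANKL 72 h and 0.0980 to 0.260 FPKM in LPS 72 h (32.0-fold and 23.0-fold lower), and *Alox15* had log2 differences of -2.46 and -2.17, the latter not called without control replicate 3 (-1.61). *Tbxa2r*, the thromboxane receptor gene, was lower in both (-1.96 and -1.97) at control levels of 0.250 to 0.700 FPKM, and a pseudocount of 1 ended both calls. Of 6 megakaryocyte and platelet markers, 5 were called lower in each 72 h group, and their sum was 663 to 774 FPKM in control, 268 to 429 FPKM in RANKL 72 h and 439.9 to 2157 FPKM in LPS 72 h. The sum was mostly *Pf4*, at 427.9 to 2109.8 FPKM in LPS 72 h against 568 to 693 FPKM in control, while the median log2 difference of the 6 was -3.19 in LPS 72 h and -3.41 in RANKL 72 h. The part of these cells in the *Alox12* and *Tbxa2r* values was not tested.

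**Figure D4:**
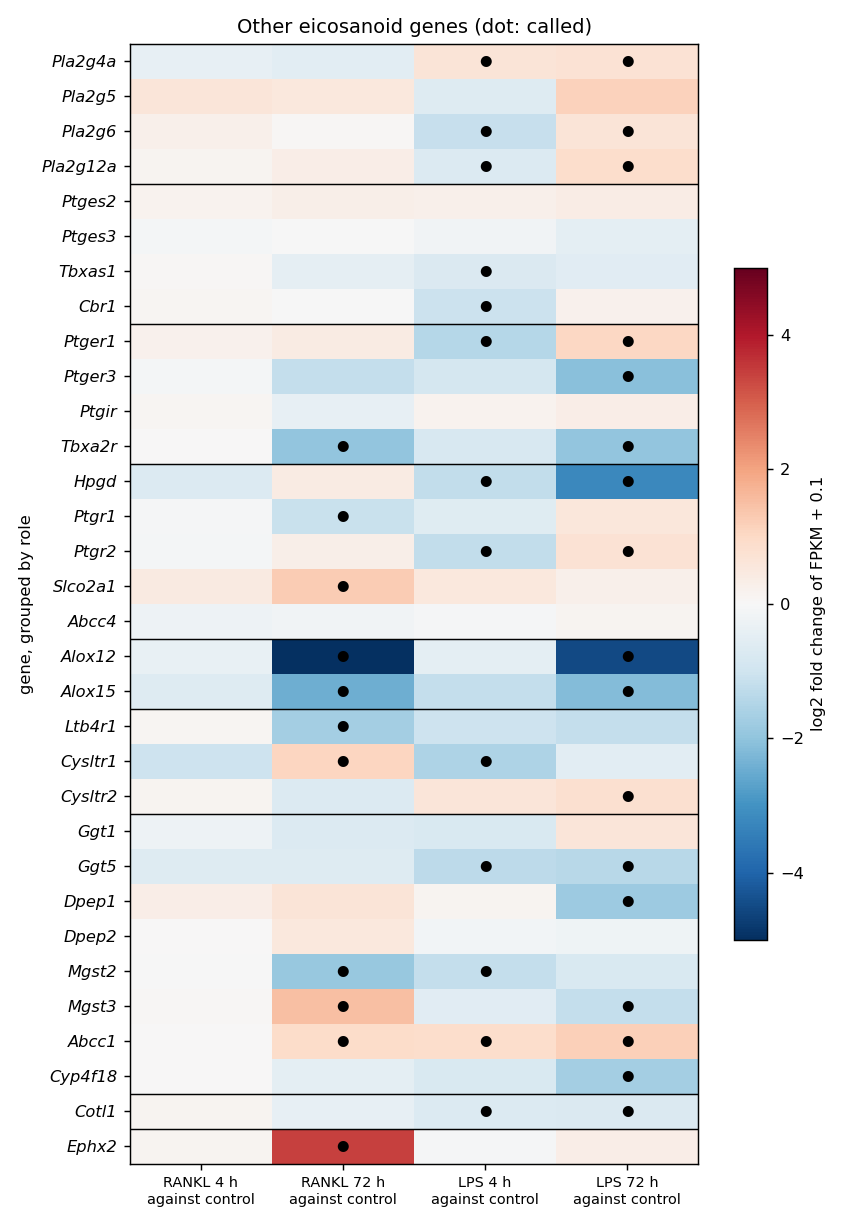
Log2 fold change of FPKM + 0.1 against control of the 32 other eicosanoid genes tested, grouped by role with lines between the roles, as colour, with a dot where a gene was called. *Ephx2* (3.41) in RANKL 72 h, *Hpgd* (-3.22) in LPS 72 h and *Alox12* (32.0-fold and 23.0-fold lower) in both 72 h groups had the strongest colours.

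Genes whose pattern over the 15 libraries was most like that of the cyclooxygenases were sought among the same 9486 genes. For *Ptgs2* they were *Il1b* (Pearson 0.985), *N4bp1* (0.976), *Il6* (0.975), *Socs3* (0.973) and *Nos2* (0.972). *Il1b*, *Il6* and *Nos2* are classical LPS-response genes and are also in the LPS-response marker list. For *Ptgs1* they were *Fam101b* (0.954), *Pram1* (0.953), *S1pr4* (0.949), *Tmem154* (0.945) and *Rasgrp2* (0.945).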

How the data were processed

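The 15 BMDM samples were measured by RNA-seq, 3 in each of 5 groups, with groups and replicate numbers taken from the labels. The authors deposited FPKM per gene and sample, made with StringTie and Ballgown according to their methods. The submitters' processing notes name StringTie and the builds GRCm38.p4 and mm10, and the aligner and annotation are not given in the sources used here. FPKM were whole multiples of a step, from which the fragments behind each value were recovered (100% of values within 0.01 of a whole fragment, 14485 of 14485 genes above 0 in at least 3 samples), at 18306184 to 20330207 per sample (median 19351141). Counting error is thus small for *Alox5ap* and large for *Ltc4s*, and covers counting only. Entries after *Tti2* in alphabetical order were not analysed here.

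The main test was limma 3.58.1 in R 4.3.3 (lmFit, then eBayes with trend), applied to log2(FPKM + 0.1) in 1 fit of the 5 groups over 11743 genes, with Benjamini-Hochberg adjustment over all of them, at the fold limits of the study's methods (1.5 and 0.66) and an adjusted p under 0.05. The study's unadjusted p is an alternative here, as are other pseudocounts, filters and scalings, voom on the recovered fragments, a replicate block and leaving out each library. Exact permutation tests of 3 against 3 cannot go below p = 0.1 and are not printed. The fits and the recovery were tested on simulated data. Deviations of same-numbered samples from their group means correlated above 0.1 in every pair for the comparisons among control, both 4 h groups and RANKL 72 h (0.136 to 0.842 over 9486 genes). They did not for LPS 72 h (-0.229 to 0.184). The former samples may thus be paired by number, which the labels do not state. The main fit is unpaired, and the fit with the replicate block is its paired alternative. The block was applied to all 15 samples, thus also to LPS 72 h, where such pairing was not seen.

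The 10 genes, the 43 other eicosanoid genes and the marker lists were chosen with earlier results of these data known, and all members and the called genes of the 43 could be named. Positions were read from GENCODE M21 (GRCm38), and promoter windows from RefSeq (GRCm38.p6), neither necessarily the annotation behind the FPKM. Tables and plots were made in Python 3.11.15 (numpy 2.4.6, pandas 2.3.3, matplotlib 3.10.9).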

Additional observations from a re-analysis of the deposited data

Results flagged for a closer look

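For 5 genes the level under a stimulus differed between 4 h and 72 h by a direct test of the difference (limma). Stimulus and time in culture cannot be told apart in these differences. Under LPS, *Ptgs2* fell by 3.07 on the log2 scale (log2 -3.07) from 4 h to 72 h, and *Ptger2* rose by 0.85. Under RANKL, *Ptges* rose by 0.84, *Ltc4s* rose by 1.43, *Ptger2* fell by 1.87 (log2 -1.87) and *Lta4h* fell by 0.66 (log2 -0.66). *Ptger2* thus rose with time under LPS and fell with time under RANKL, although its LPS value shrank to 0.20 after centring on the median gene. Centring also ended the calls of *Ptges* (adjusted p = 0.109) and *Ltc4s* (adjusted p = 0.0808) under RANKL.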

How the results depend on the processing

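Of 880 values of the 10 genes under 11 alternatives, 849 kept their direction and side of the threshold, 21 lost and 10 gained a call, and 0 reversed. Of 1200 values that left out 1 library, 1158 kept both, 32 lost and 10 gained a call, and 0 reversed. Another 13 and 27 values that were called in neither fit changed sign. The number of genes called moved by over 1.5 times in these cases: in RANKL 4 h from 0 to 1 under the unadjusted p of the study's methods, in RANKL 4 h against LPS 4 h from 6 to 3 after centring on the median gene, and in RANKL 72 h against RANKL 4 h from 4 to 2 without a filter on low values. Leaving out each library gave 3 to 5 called in RANKL 72 h against control (3 without control replicate 1 or RANKL 72 h replicate 3) and 1 to 5 in RANKL 72 h against RANKL 4 h (1 without RANKL 4 h replicate 1 or RANKL 72 h replicate 3). In the latter, the adjusted p of *Ptges* was 0.0511 without RANKL 4 h replicate 1, 0.15 without RANKL 4 h replicate 2, 0.0908 without RANKL 72 h replicate 1, 0.119 without RANKL 72 h replicate 3 and 0.0507 without LPS 4 h replicate 2. That of *Ltc4s* was 0.0542 without control replicate 2, 0.181 and 0.102 without RANKL 4 h replicates 1 and 3, and 0.0915, 0.0565 and 0.125 without RANKL 72 h replicates 1, 2 and 3. *Lta4h* fell short of the fold limit there, at -0.57 without RANKL 4 h replicate 1 and -0.54 without RANKL 72 h replicate 3. With only the groups compared in the fit, the LPS 72 h calls of *Alox5* (adjusted p = 0.0645) and *Alox5ap* (0.114) were lost. So were the higher *Hpgds* in RANKL 72 h against LPS 72 h (0.059, and 0.0671 after centring) and the higher *Ltc4s* in RANKL 72 h against RANKL 4 h (0.0574). The cause of these losses was not tested. With the replicate block, the paired fit called 7 instead of 6 genes in LPS 4 h (*Alox5*, adjusted p = 0.0137) and 5 instead of 4 in RANKL 72 h against RANKL 4 h (*Ptgs1*, adjusted p = 0.0333), and changed no other call of the 10 genes. Over all genes, centring changed the LPS 4 h calls from 990 higher and 4660 lower to 1871 higher and 1529 lower, those of RANKL 72 h from 1951 and 886 to 1167 and 1428, those of RANKL 4 h against LPS 4 h from 4818 and 1054 to 1580 and 1905, those of RANKL 72 h against RANKL 4 h from 1930 and 802 to 1141 and 1351, and those of LPS 72 h against LPS 4 h from 5186 and 1631 to 2209 and 3224. With 10 to 115 fragments per library, *Ltc4s* is the gene that depth limits most.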
